A study of Mus musculus with 30 samples.

Results

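Menin in vehicle and UTX in drug were compared gene by gene, across all 21896 protein-coding genes of the mouse annotation, in 2 chromatin immunoprecipitation libraries of WT-MA9 leukaemia cells. A gene was taken to carry a protein when the summit of a deposited peak lay within 1 kb of the gene's annotated start or end. By that rule 6841 genes carried Menin in DMSO (31.2% of all), 7983 carried UTX in MI-503 (36.5%) and 6211 carried both (28.4%). The 6211 genes with both peaks are the ones whose ranks are described below, while 630 genes had Menin alone and 1772 had UTX alone. Rank was set by the deposited −log10 q of the gene's best peak, the negative logarithm of the false discovery rate that the peak caller gave at the summit.

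Both libraries came from the same line, WT-MA9, a mouse line of acute myeloid leukaemia with stable expression of pMSCV-MLL-AF9-GFP, a retroviral vector for the MLL-AF9 fusion with a GFP marker. The Menin library was made from cells in DMSO, the vehicle, and the UTX library from cells in MI-503, a small molecule that blocks the contact of Menin with MLL1. Cells were harvested 4 days after treatment and fixed with 1% paraformaldehyde for 5 minutes. The sources used here give no dose of MI-503. With a single library per condition, no difference between them has a replicate check and none is given a p-value. Antibody and treatment changed together, and each list was called against its own vehicle input, so their parts in any difference cannot be told apart. A gene with both peaks was therefore not shown to carry both proteins at once. Absolute read depth is unknown. Exact Clopper-Pearson 95% intervals are given for shares and cover counting error only.

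Menin is a scaffold protein that binds the MLL1 and MLL2 histone methyltransferases and holds them at active promoters. UTX is a demethylase of histone H3 lysine 27 and belongs to the sister complexes built on MLL3 and MLL4. In MLL-rearranged leukaemia the fusion protein depends on Menin, which is why the contact is a drug target. NF-Y, a trimeric transcription factor, binds the CCAAT box of many promoters, and SP1 and related zinc finger factors bind GC boxes. The labels of the series include NF-YA libraries, which were not analysed here.

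The promoters below are shown because these boxes differed in frequency between the extremes of the comparison. They were chosen after the values were seen, among the genes of largest lean whose promoter holds the box that was more frequent on their side. Each is the RefSeq promoter of the gene on build GRCm38.p6, from 250 bases before to 50 bases after the start, read 5′ to 3′ along the gene. The first 4 belong to genes that ranked far higher for UTX than for Menin, and capitals mark CCAAT or its reverse complement ATTGG. They are Mgat2 (chr12:69183908-69184207, plus strand), an N-glycan branching enzyme gene, Fam185a (chr5:21424653-21424952, plus strand), Brip1 (chr11:86201144-86201443, minus strand), a DNA repair helicase gene, and Ezh2 (chr6:47594981-47595280, minus strand), which encodes the methyltransferase of histone H3 lysine 27.
Mgat2: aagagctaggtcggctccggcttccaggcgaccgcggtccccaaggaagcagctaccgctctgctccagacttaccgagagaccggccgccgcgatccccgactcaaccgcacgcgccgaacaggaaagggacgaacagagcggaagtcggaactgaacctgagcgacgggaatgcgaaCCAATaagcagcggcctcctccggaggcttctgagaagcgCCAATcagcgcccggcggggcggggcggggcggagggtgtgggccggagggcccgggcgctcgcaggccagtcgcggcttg
Fam185a: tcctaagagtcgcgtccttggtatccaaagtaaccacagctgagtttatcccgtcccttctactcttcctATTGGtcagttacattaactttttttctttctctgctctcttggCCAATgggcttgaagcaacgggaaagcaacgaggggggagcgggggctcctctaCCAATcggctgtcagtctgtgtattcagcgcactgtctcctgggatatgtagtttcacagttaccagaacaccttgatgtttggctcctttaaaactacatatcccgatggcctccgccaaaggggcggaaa
Brip1: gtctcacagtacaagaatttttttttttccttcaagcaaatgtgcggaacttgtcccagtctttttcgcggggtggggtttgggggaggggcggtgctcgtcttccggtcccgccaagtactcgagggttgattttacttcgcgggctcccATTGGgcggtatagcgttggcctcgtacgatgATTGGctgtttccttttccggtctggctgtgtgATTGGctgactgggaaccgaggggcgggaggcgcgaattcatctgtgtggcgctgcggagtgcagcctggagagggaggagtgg
Ezh2: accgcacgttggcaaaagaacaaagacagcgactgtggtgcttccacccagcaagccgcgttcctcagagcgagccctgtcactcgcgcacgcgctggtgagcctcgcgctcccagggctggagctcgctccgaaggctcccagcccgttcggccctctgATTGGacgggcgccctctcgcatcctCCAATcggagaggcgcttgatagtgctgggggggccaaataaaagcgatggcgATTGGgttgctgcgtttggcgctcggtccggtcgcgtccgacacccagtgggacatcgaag
The next 3 belong to genes that ranked far higher for Menin, and capitals mark GGGCGG or its reverse complement CCGCCC. They are Uba3 (chr6:97205598-97205897, minus strand), the catalytic subunit gene of the NEDD8-activating enzyme, Sh3bp4 (chr1:89070165-89070464, plus strand), an endocytic adaptor gene, and Esd (chr14:74732047-74732346, plus strand), which encodes esterase D. The absence of CCAAT from these 3 promoters was part of how they were chosen. The first 4 were not chosen for a lack of GGGCGG. It stands unmarked in the promoters of Mgat2 (3), Brip1 (3) and Fam185a (1), and is absent from that of Ezh2.
Uba3: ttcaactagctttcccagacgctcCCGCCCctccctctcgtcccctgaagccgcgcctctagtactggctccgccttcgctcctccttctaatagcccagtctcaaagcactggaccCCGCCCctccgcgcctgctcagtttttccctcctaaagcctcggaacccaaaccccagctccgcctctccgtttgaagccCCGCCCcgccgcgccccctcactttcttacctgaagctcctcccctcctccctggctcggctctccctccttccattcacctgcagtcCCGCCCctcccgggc
Sh3bp4: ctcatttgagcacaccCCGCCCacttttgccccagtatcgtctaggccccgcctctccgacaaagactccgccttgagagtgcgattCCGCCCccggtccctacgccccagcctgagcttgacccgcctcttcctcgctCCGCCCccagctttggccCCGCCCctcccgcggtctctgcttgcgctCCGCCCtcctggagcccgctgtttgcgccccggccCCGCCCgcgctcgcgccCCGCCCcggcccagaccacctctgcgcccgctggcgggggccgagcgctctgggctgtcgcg
Esd: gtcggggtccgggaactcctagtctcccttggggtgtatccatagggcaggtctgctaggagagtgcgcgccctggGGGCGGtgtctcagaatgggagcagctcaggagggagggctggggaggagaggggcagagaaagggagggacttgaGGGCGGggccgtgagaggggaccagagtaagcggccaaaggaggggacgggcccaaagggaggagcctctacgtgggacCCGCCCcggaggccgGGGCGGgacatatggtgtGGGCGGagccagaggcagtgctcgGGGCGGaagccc
The last pair carries the endoplasmic reticulum stress element, in which CCAAT and CCACG stand 9 bases apart. They are Derl3 (chr10:75893148-75893447, plus strand), a gene of protein export from the endoplasmic reticulum, and Hsp90b1 (chr10:86705395-86705694, minus strand), which encodes the chaperone GRP94. Capitals again mark CCAAT or ATTGG.
Derl3: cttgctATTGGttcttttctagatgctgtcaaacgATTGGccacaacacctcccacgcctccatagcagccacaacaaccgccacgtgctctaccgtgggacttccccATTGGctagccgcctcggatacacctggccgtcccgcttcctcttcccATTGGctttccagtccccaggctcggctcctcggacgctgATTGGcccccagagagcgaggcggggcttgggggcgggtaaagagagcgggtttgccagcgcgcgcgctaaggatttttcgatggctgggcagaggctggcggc
Hsp90b1: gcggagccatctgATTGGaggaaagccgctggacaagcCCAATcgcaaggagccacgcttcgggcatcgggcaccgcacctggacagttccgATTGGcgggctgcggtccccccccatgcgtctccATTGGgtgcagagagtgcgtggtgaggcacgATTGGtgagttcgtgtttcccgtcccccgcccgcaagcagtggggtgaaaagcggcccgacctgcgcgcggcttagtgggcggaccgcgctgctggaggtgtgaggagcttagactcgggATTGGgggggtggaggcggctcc

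Most genes with Menin in vehicle had UTX in drug, and the higher a gene ranked for one protein, the more often it had the other. Of the 6841 Menin genes, 90.8% (90.1 to 91.5%) had a UTX summit in the window, and of the 7983 UTX genes, 77.8% (76.9 to 78.7%) had a Menin summit. In the lowest decile of Menin genes by −log10 q, 491 of 692 (71.0%) had UTX, and in the highest decile 676 of 684 (98.8%) did. The climb was steeper from the other side. In the lowest decile of UTX genes, 284 of 763 (37.2%) had Menin, the share was 61.4% in decile 3 and 83.6% in decile 5, and in the highest decile it was 794 of 798 (99.5%). Genes with UTX alone thus lay mostly low in the UTX ranking. Those of highest rank were Arl15 (22.4-fold over background), Armc5 (20.2-fold), Bahd1 (27.8-fold), Gmfg (21.3-fold), a regulator gene of actin branching, Klhl25 (24.5-fold), an adaptor gene of a CUL3 ubiquitin ligase, and Map7d1 (21.3-fold). The genes of highest rank with Menin alone were Mapk8 (37.0-fold), the gene of the stress kinase JNK1, Immp2l (25.6-fold), a peptidase gene of the mitochondrial inner membrane, Mtrf1l (21.1-fold), a mitochondrial translation release factor gene, Garnl3 (19.7-fold), Dok4 (17.6-fold) and Prpsap2 (17.4-fold). Just inside the edge of the window, the summit lay 997 bp from Mfsd11 for Menin (12.8-fold) and 999 bp from Rflna for UTX (6.57-fold).

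**Figure D1:**
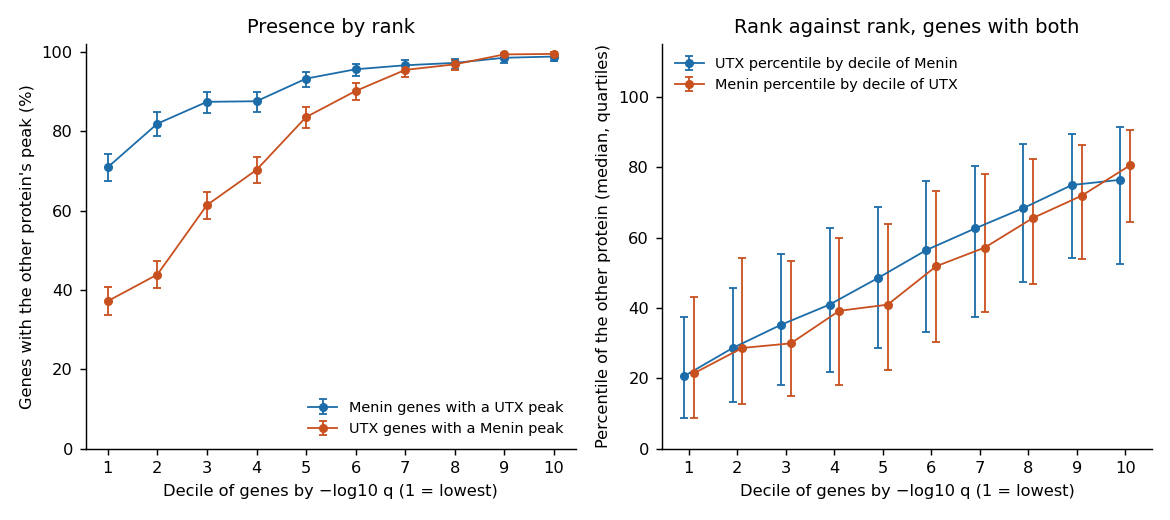
Left, share of Menin genes with a UTX peak (blue) and of UTX genes with a Menin peak (orange) by decile of −log10 q, with exact 95% intervals. Right, median percentile of the other protein, with quartiles, at the 6211 genes with both. The orange points on the left climb from 37.2% to 99.5%, and on the right the medians climb from 20.6 to 76.4 and from 21.4 to 80.5.

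Where a gene had both peaks, they lay at the same place. The Menin and UTX peaks overlapped at 5876 of the 6211 genes (94.6%), the median distance between summits was 39 bp, and 4894 genes (78.8%) had summits at most 100 bp apart. The strongest peaks took the same order only in part. Spearman's rho between the −log10 q values was 0.511 across the 6211 genes. These points are not independent, since neighbouring genes share peaks: there were 5272 distinct pairs of peaks, and 1864 genes shared their pair with another gene. UTX values also fell on a limited number of steps, which appear as horizontal rows of points in the plot of percentiles. By decile of Menin, the median UTX percentile among genes with both went from 20.6 in the lowest decile to 74.9 in decile 9 and 76.4 in the highest. By decile of UTX, the median Menin percentile went from 21.4 to 71.9 in decile 9 and 80.5 in the highest. Of the 623 genes in the top decile of Menin, 167 (26.8%, 23.4 to 30.5%) were also in the top decile of UTX, and 143 (22.95%, 19.7 to 26.5%) were below the middle of the UTX ranking. Of the 614 genes in the top decile of UTX, 69 (11.2%, 8.85 to 14.0%) were below the middle of the Menin ranking.

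The genes near the top of both rankings had varied roles. Map2k1, the gene of the MAP kinase kinase MEK1, had 26.2-fold Menin and 31.6-fold UTX enrichment, at percentiles 99.1 and 99.0 among genes with both. Pdp1, a mitochondrial phosphatase gene that activates pyruvate dehydrogenase, had 37.9-fold and 31.7-fold. Rrbp1, a ribosome-binding protein gene of the endoplasmic reticulum, had 28.6-fold and 39.9-fold, and Sde2, a genome stability gene, had 23.1-fold and 43.8-fold. Fbxw7, the gene of a ubiquitin ligase subunit that degrades MYC and cyclin E, had 18.8-fold and 41.3-fold. Hjurp, the chaperone gene of centromeric histone CENP-A, had 8.92-fold and 43.4-fold and still lay at percentile 97.3 for Menin, where fold and −log10 q ranked peaks differently. At the bottom of both rankings lay Hdhd5, Hcfc2, Letm1, a gene of ion exchange in mitochondria, Irak2, a kinase gene of interleukin-1 signalling, Sh3bp5 and Ndufaf6, an assembly factor gene of respiratory complex I. Menin enrichment at these 6 ran from 2.79-fold to 3.84-fold and UTX enrichment from 4.05-fold to 5.13-fold.

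**Figure D2:**
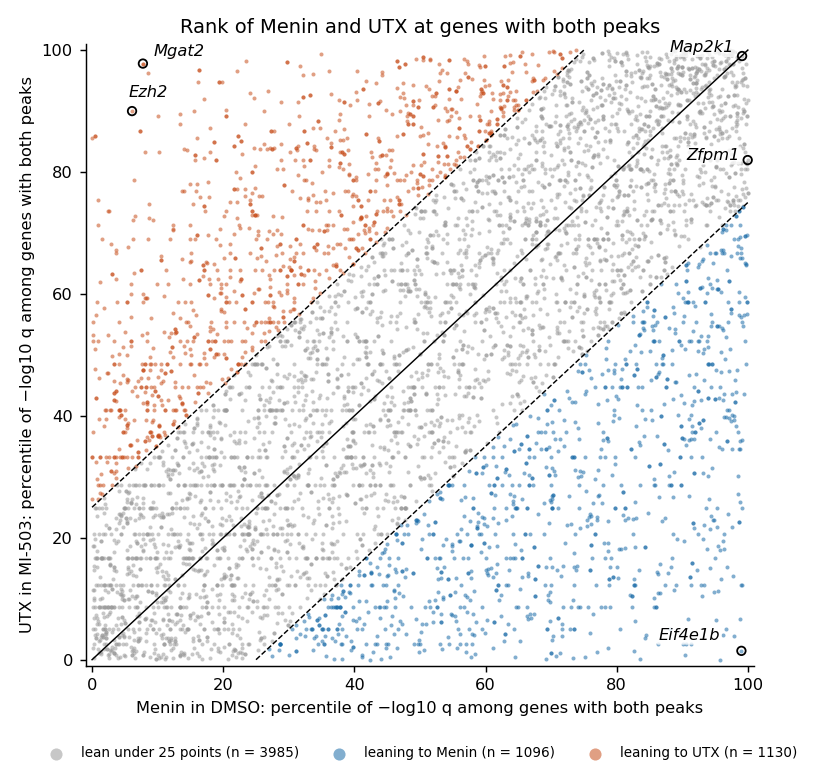
Percentile of Menin in DMSO (horizontal) against percentile of UTX in MI-503 (vertical) at the 6211 genes with both peaks, each point a gene. The solid line marks equal percentiles and the dashed lines a difference of 25 points, beyond which 1096 genes lie on the Menin side (blue) and 1130 on the UTX side (orange).

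The lean of a gene is its UTX percentile minus its Menin percentile, in points, with both percentiles taken over the 6211 genes with both peaks. A positive lean means a higher place in the UTX ranking. The median lean was 1.59 points, the quartiles were −16.7 and 18.6, and the range was −97.6 to 90.03. A lean of at least 25 points to Menin was found at 1096 genes (17.6%) and to UTX at 1130 (18.2%), with 3985 between. These shares are the background against which the functions are read. The split depended on the scale and the threshold. With percentiles taken among all peaks of each list, 511 genes leaned to Menin and 1431 to UTX, and at 40 points 569 and 437 did. Genes leaning to Menin had a median enrichment of 11.3-fold for Menin and 8.21-fold for UTX, with median peak widths of 440 bp and 350 bp. Genes leaning to UTX had 5.55-fold and 15.7-fold, with widths of 291.5 bp and 486 bp. The peaks overlapped at 93.3% of the former, 96.5% of the latter and 94.4% of the genes between.

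The largest lean to Menin was at Eif4e1b, a germline relative of the cap-binding translation factor eIF4E, with 32.5-fold Menin and 4.85-fold UTX enrichment and a lean of −97.6 points. Fbrsl1 followed with 23.1-fold and 3.29-fold, Zfp78, a zinc finger gene, with 23.05-fold and 5.33-fold, and Heatr1, a gene of ribosomal RNA transcription and processing, with 28.0-fold and 4.81-fold. The Uba3 promoter printed above lay under a 24.9-fold Menin peak and a 4.56-fold UTX peak, and that of Esd under 14.3-fold and 4.92-fold. At Sh3bp4 (25.3-fold and 6.02-fold) the peaks did not overlap, with summits 507 bp apart. Ankrd50, Prdx3, a mitochondrial peroxidase gene, Ctnnal1, Styx, a pseudophosphatase gene, and Ctnnbip1, the gene of the β-catenin inhibitor ICAT, had leans of −86.8 to −88.8. At these 5 genes Menin enrichment was 17.4-fold to 30.5-fold and UTX enrichment 5.47-fold to 7.11-fold.

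At the other end, Mgat2 and Rpl36al, a ribosomal protein gene, shared 1 peak of each kind, at 4.07-fold for Menin and 31.7-fold for UTX, and had a lean of 90.03 points. Med13, a gene of the kinase module of Mediator, had 4.17-fold and 31.6-fold. Brip1 had 2.51-fold Menin enrichment, near the foot of the ranking at percentile 0.0242, and 21.3-fold UTX enrichment. Ezh2 had 4.46-fold and 23.5-fold, with a lean of 83.9 points. Neighbours that shared their peaks were Fam185a and Ccdc146 (2.59-fold and 18.6-fold), Hnrnpdl, an RNA-binding protein gene, and Enoph1, a methionine salvage enzyme gene (5.47-fold and 29.9-fold), and Ino80b, a subunit gene of the INO80 remodeller, and Wbp1 (3.10-fold and 21.9-fold). At Hnrnpdl and Enoph1 the peaks did not overlap, with summits 934 bp apart. The fold values of the lists rest on separate libraries and inputs, so they are set side by side and not divided.

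**Figure D3:**
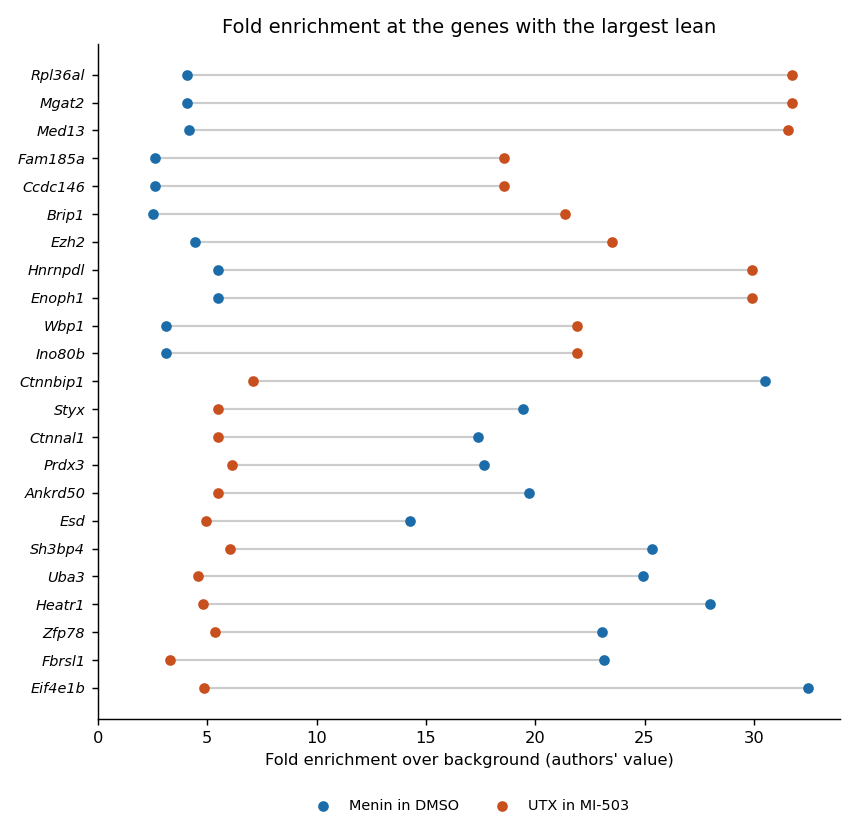
Deposited fold enrichment of Menin in DMSO (blue) and UTX in MI-503 (orange) at 12 genes with the largest lean to Menin (lower part) and 11 of those with the largest lean to UTX (upper part), ordered by lean. Genes were chosen by lean, and their folds run from 2.51 to 32.5.

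Genes where UTX was already found in vehicle leaned to UTX. The UTX list in DMSO had 217 peaks, and 168 of the 6211 genes (2.70%) had such a peak in the window. Their median percentile was 64.6 for Menin and 92.9 for UTX in drug, with a median lean of 22.3 points. Of the genes leaning to UTX, 77 of 1130 (6.81%, 5.41 to 8.44%) had a UTX peak in DMSO, against 90 of 3985 (2.26%, 1.82 to 2.77%) between and 1 of 1096 (0.0912%, 0.00231 to 0.507%) leaning to Menin. That 1 gene was Coa4, an assembly gene of cytochrome oxidase. By definition, a gene in the top 25% of the UTX ranking cannot lean to Menin by 25 points. The low count on the Menin side and the positive median lean thus follow, at least in part, from the high UTX ranks of these genes. Within the top 25% of the UTX ranking, a UTX peak in DMSO was found at 72 of 498 genes leaning to UTX (14.5%, 11.5 to 17.9%). For those between it was found at 72 of 1057 (6.81%, 5.37 to 8.50%). The UTX lists share their antibody and input, and both were called on WT-MA9 cells, so they are not independent of each other. The Menin list in MI-503 had 8 peaks and touched 2 of the 6211 genes.

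Promoters of genes leaning to UTX held CCAAT more often than promoters of genes leaning to Menin. A RefSeq promoter whose start lay within 1 kb of a summit was matched for 4833 of the 6211 genes, which is 94.1% of those with any promoter in the table. Motifs were searched on both strands in the window of 300 bases. For the share over all promoters, each gene gave its promoter of lowest coordinate, whether or not it lay near a summit. Those promoters had a median GC content of 56.3%, against 62.7% for genes with both peaks, so the shares are not measured alike. CCAAT was found in 546 of 914 promoters leaning to UTX (59.7%, 56.5 to 62.9%), 1390 of 3082 between (45.1%, 43.3 to 46.9%) and 282 of 837 leaning to Menin (33.7%, 30.5 to 37.0%), against 39.0% of all 17491 promoters in the table. At least 2 CCAAT stood in 37.4%, 19.7% and 10.6% of them, in the same order, and in 13.2% of all promoters. The promoters of Brip1, Ezh2 and Fam185a printed above have 3 each and that of Hsp90b1 has 6. The order held within GC content. In the lowest of 3 bins of equal size by GC content, 63.8% of promoters leaning to UTX and 44.3% of those leaning to Menin held CCAAT, in the middle bin 60.3% and 37.6%, and in the highest bin 53.8% and 24.4%. Median GC content was 62.0% for promoters leaning to UTX and 64.7% for those leaning to Menin.

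The difference lay in the UTX ranking more than in that of Menin. Genes with no CCAAT had median percentiles of 48.1 for Menin and 42.7 for UTX, those with 1 had 51.0 and 52.3, and those with at least 2 had 52.6 and 71.8. Over the same steps the share of genes leaning to UTX went from 14.1% to 17.3% and 32.9%, and the share leaning to Menin from 21.2% to 16.4% and 8.57%. By decile of UTX, the share of promoters with CCAAT went from 30.1% in the lowest to 71.5% in the highest. By decile of Menin it was 33.6% in the lowest, 54.6% in decile 7 and 38.5% in the highest. Genes with UTX alone had CCAAT in 32.0% and those with Menin alone in 34.9%. The boxes stood a median of 80 bases before the start in promoters leaning to UTX and 96 bases before it in those leaning to Menin.

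The GC box GGGCGG went the other way. It was found in 83.4% (80.7 to 85.9%) of promoters leaning to Menin, 74.9% between and 70.6% (67.5 to 73.5%) leaning to UTX, against 45.9% of all promoters. By decile of the lean its share went from 87.0% at the Menin end to 71.7% at the UTX end, while that of CCAAT went from 28.7% to 63.9%. The share of GGGCGG was 80.3% in decile 2 and was flat from decile 7 to 10, at 69.8%, 68.1%, 70.4% and 71.7%. GGGCGG holds only G and C, and promoters leaning to Menin had the higher median GC content. Its share was not compared within bins of GC content. Promoters with GGGCGG and no CCAAT had a median lean of −4.07 (n = 1982), and those with CCAAT and no GGGCGG had 11.6 (n = 549). The other 6 motifs differed by fewer percentage points between promoters leaning to Menin and to UTX, at lower shares. The ETS motif CCGGAAG stood in 22.9% and 22.2% (all promoters 11.8%), the E-box CACGTG in 10.4% and 15.5% (7.75%), the NRF1 motif GCGCATGC in 5.26% and 8.86% (3.56%), the cyclic AMP response element TGACGTCA in 4.78% and 5.47% (2.22%), the YY1 motif AAGATGGCG in 3.23% and 4.92% (1.93%) and TATAAA in 5.02% and 6.35% (13.3%). CCAAT is also part of the stress element described below, and none of the 8 motifs contains another. A match of letters was not shown to be a bound site. Single genes went against the shares, since the promoter of Med13 held no CCAAT and 7 GGGCGG, and that of Ankrd50 held 3 CCAAT.

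**Figure D4:**
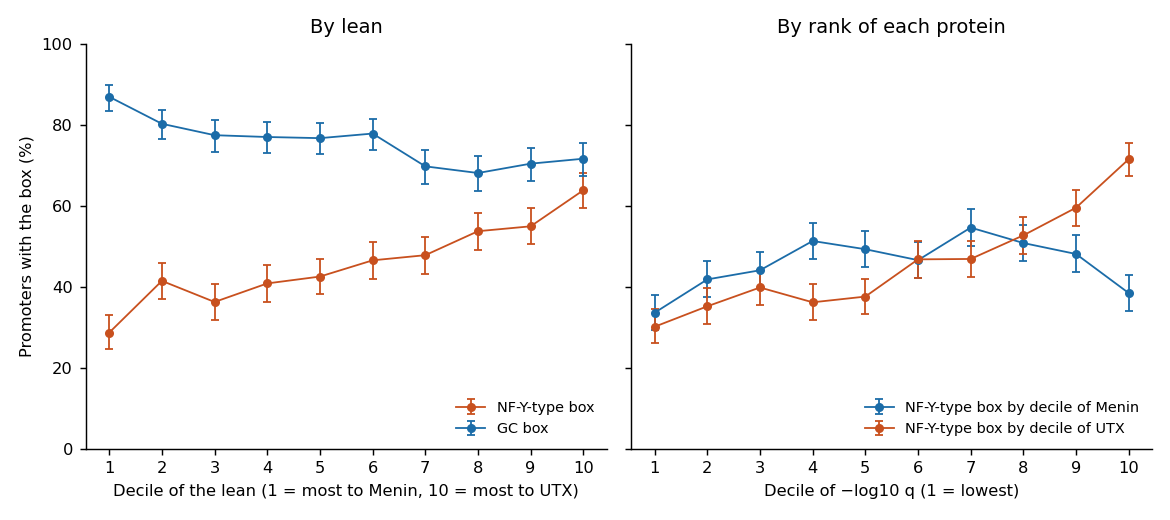
Share of promoters with the CCAAT box (marked NF-Y-type box) and the GC box, with exact 95% intervals, by decile of the lean (left), and share with the CCAAT box by decile of each protein's −log10 q (right). On the left the shares go from 28.7% to 63.9% and from 87.0% to 71.7%, and on the right the UTX points reach 71.5% while the Menin points fall back to 38.5% in the highest decile.

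Functions were read from 53 gene lists, of which 50 had at least 8 genes with both peaks. A list was said to lean when the median lean of its genes was at least 10 points from 0. By that measure 2 lists leaned to Menin, 9 to UTX and 39 to neither, and the median was above 0 in 37 of the 50 lists. The 95% interval of the median, from order statistics over genes, held 0 in 5 of the 11 lists that leaned. These were both lists on the Menin side, KLHL and BTB adaptors (−51.8 to 10.4) and USP deubiquitinases (−33.1 to 6.21), and aminoacyl-tRNA synthetases (−17.8 to 27.2), AP-1, ATF and CREB factors (−4.56 to 23.4) and antigen presentation genes (−25.8 to 25.4). The interval treats genes as separate, though they are not replicates and neighbours share peaks, so it is no test of a lean. That of proteasome subunits held 1.59, the median of all genes with both. Splicing factors and hnRNPs, which did not lean by this measure, had an interval of 2.62 to 12.7. With percentiles among all peaks, where the median lean of all genes was 7.42, no list leaned to Menin and 19 leaned to UTX. Within every list that leaned, some genes leaned the other way. The lists can share genes and no list was tested. The presence of UTX in drug was more frequent than that of Menin in vehicle in 45 of these 50 lists, as over all genes.

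**Figure D5:**
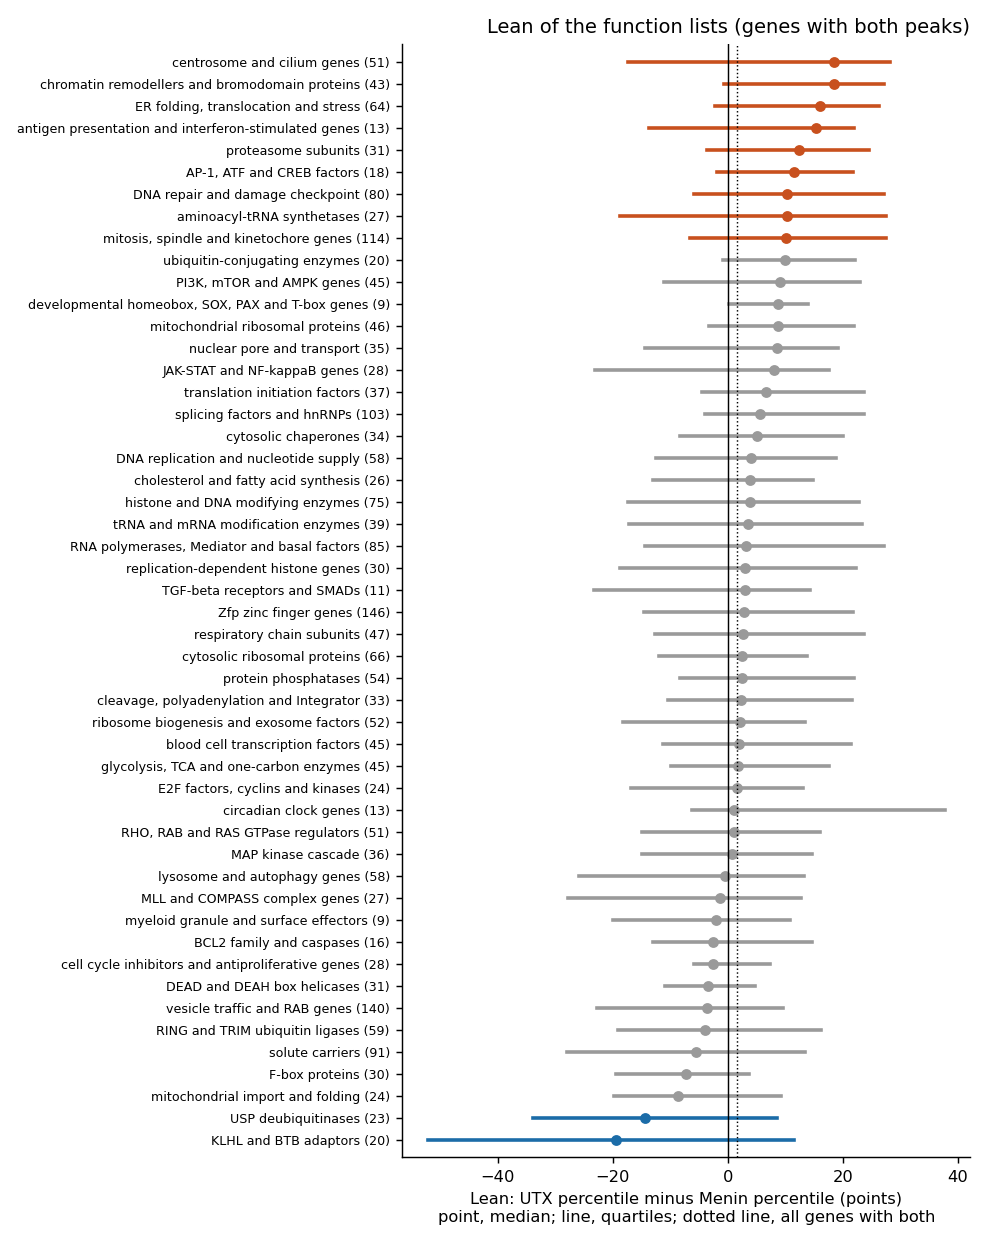
Median lean (point) and quartiles (line) of the 50 function lists, with the number of genes with both peaks in brackets. The solid vertical line marks 0 and the dotted line the median of all genes with both, 1.59. Blue lists lie at least 10 points to the Menin side and orange lists at least 10 points to the UTX side.

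Genes of protein turnover fell on both sides. The adaptors of the KLHL and BTB families, which bring substrates to CUL3 ubiquitin ligases, had the lowest median of the 50 lists, −19.4 points over the 20 of 97 genes with both peaks. Of these 20, 7 leaned to Menin and 2 to UTX, against 17.6% and 18.2% of all genes. Klhl26 had 12.6-fold Menin and 6.82-fold UTX enrichment, Klhl21 8.83-fold and 6.57-fold, and Cul3 itself, the scaffold of the ligase, 18.6-fold and 9.30-fold. Kbtbd8 was on the other side, with 5.32-fold and 18.1-fold. The median rested on the window, and was −3.83 with 3 kb and −6.85 with percentiles among all peaks. The USP deubiquitinases, which remove ubiquitin, had a median of −14.3 over 23 of 57 genes, with 8 leaning to Menin and 1 to UTX. Usp3 had 18.8-fold and 8.81-fold, Usp22, the deubiquitinase gene of the SAGA coactivator, 16.7-fold and 11.2-fold, and Usp32 26.8-fold and 13.6-fold. Usp36, a nucleolar deubiquitinase gene, was high in both at 21.0-fold and 30.4-fold, and Usp19 alone leaned to UTX (5.32-fold and 17.7-fold). With percentiles among all peaks the median was −2.96. Among matched promoters CCAAT stood in 5 of 19 of the KLHL and BTB list and 4 of 16 of the USP list. Over genes with both peaks it stood in 2218 of the 4833 promoters (45.9%). The share of CCAAT did not follow the lean in every list. It was found in 8 of 26 promoters of proteasome subunits, with a median lean of 12.4, and 35 of 59 of solute carriers, with −5.58. Replication-dependent histone genes, with a median of 3.01, had it in 21 of 24.

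Proteasome subunits had a median on the UTX side, 12.4 (0.886 to 24.4) over the 31 of 51 genes with both. The counts past 25 points were near the background, with 7 of 31 (22.6%) leaning to UTX and 5 (16.1%) to Menin. Psmd11 (4.75-fold and 12.6-fold) and Psmd13 (4.73-fold and 11.5-fold), subunit genes of the regulatory lid, leaned to UTX, as did Psme3 (3.50-fold and 11.98-fold), an activator gene, and Adrm1 (5.67-fold and 17.0-fold), a ubiquitin receptor gene. Psmc6, an ATPase subunit gene, leaned to Menin by 74.7 points, at 12.2-fold and 4.44-fold. F-box proteins, the substrate receptors of another ligase class, had a median of −7.19 (7 to Menin and 4 to UTX of 30), RING and TRIM ligases −3.90 (12 and 9 of 59) and ubiquitin-conjugating enzymes 9.89 (2 and 5 of 20). Mdm2, the ligase gene of p53, had 6.02-fold and 21.9-fold, and Rnf2, a catalytic subunit gene of Polycomb complex 1, had 13.6-fold and 6.57-fold. Ube2c, the conjugating enzyme gene of the anaphase-promoting complex, had 5.25-fold and 32.8-fold and 6 CCAAT in its promoter. Lysosome and autophagy genes had a median of −0.43 but a wide spread, with 15 of 58 leaning to Menin and 10 to UTX. Wipi1 (29.5-fold and 8.89-fold) and Atg7 (9.84-fold and 4.71-fold), genes of autophagosome formation, lay on the Menin side and Uvrag (4.71-fold and 22.6-fold) and Atg101 (4.09-fold and 16.5-fold), also autophagy genes, on the UTX side.

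Genes of folding and stress in the endoplasmic reticulum were covered almost throughout and leaned to UTX. Of 77 genes, 67 had Menin (87.0%) and 69 UTX (89.6%), against 31.2% and 36.5% of all genes. Such coverage was not particular to them, since cell cycle inhibitors and antiproliferative genes had 82.9% and 91.4%. The 64 endoplasmic reticulum genes with both had median percentiles of 56.7 for Menin and 78.7 for UTX. Their median lean was 15.97 points. Of these 64, 20 (31.25%) leaned to UTX and 7 (10.9%) to Menin, against 18.2% and 17.6% of all genes with both. Eif2ak3, the gene of the stress sensor PERK, had 4.79-fold and 19.2-fold with 6 CCAAT, Xbp1, the transcription factor gene of the unfolded protein response, 5.09-fold and 16.7-fold, and Ddost, a subunit gene of the oligosaccharyltransferase, 4.71-fold and 20.2-fold. Crebrf (17.4-fold and 50.3-fold) and the chaperone gene Dnajb9 (17.5-fold and 40.5-fold) were high in both rankings. The sensor gene Ern1 (21.1-fold and 10.7-fold) and Sec61a1 (12.3-fold and 5.76-fold), the gene of the translocation channel, leaned to Menin. CCAAT stood in 39 of 54 matched promoters of this list, against 45.9% over all genes with both, and 10 of its 64 genes had a UTX peak in DMSO, against 168 of 6211 overall. The stress element of CCAAT and CCACG 9 bases apart was found in 27 of all 17491 promoters and in 13 of the 4833 of genes with both, of which 9 were on this list. Those 13 had a median lean of 24.5, with median percentiles of 61.8 for Menin and 87.9 for UTX. Derl3 had 5.95-fold and 18.6-fold and Hsp90b1 8.44-fold and 25.7-fold, while Pdia6, a disulphide isomerase gene with the element, leaned to Menin at 10.3-fold and 8.21-fold.

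Other secretory and metabolic lists did not share this lean. Vesicle traffic and RAB genes had a median of −3.60, with 32 of 140 leaning to Menin and 14 to UTX, and the sign turned with percentiles among all peaks (3.15). Rab35, a gene of endosome recycling, had 11.8-fold and 7.11-fold, and Rab5a, the gene of the early endosome GTPase, was high in both at 18.9-fold and 28.8-fold. Solute carriers had a median of −5.58, with 25 of 91 leaning to Menin and 12 to UTX. Slc25a1, the mitochondrial citrate carrier gene, had 21.4-fold and 7.66-fold and Slc22a5, the carnitine transporter gene, 21.7-fold and 8.67-fold, while the phosphate carrier genes Slc20a1 (17.1-fold and 33.4-fold) and Slc25a3 (11.6-fold and 35.3-fold) were high in both. Cholesterol and fatty acid genes had a median of 3.80 over 26 genes, with 4 leaning to UTX and 3 to Menin, and CCAAT stood in 17 of their 20 matched promoters, against 45.9% over all genes with both. Idi1 (6.50-fold and 20.3-fold) and Hmgcs1 (5.22-fold and 15.1-fold), genes of the sterol pathway, leaned to UTX and Scd2, a fatty acid desaturase gene, to Menin (10.8-fold and 8.76-fold). Glycolysis, citrate cycle and one-carbon genes had a median of 1.85, with 8 of 45 leaning to UTX and 6 to Menin. The glycolytic enzyme genes Eno1 (5.49-fold and 14.8-fold) and Tpi1 (6.62-fold and 6.02-fold) stood on opposite sides.

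Genes of cell division leaned to UTX. Among 168 genes of mitosis, spindle and kinetochore, 116 had Menin (69.0%) and 135 had UTX (80.4%), against 31.2% and 36.5% of all genes, with 2 and 21 alone. The 114 with both had a median lean of 10.0 points. Of these 114, 33 (28.9%) leaned to UTX and 10 (8.77%) to Menin, against 18.2% and 17.6% of all genes with both. Ttk, a kinase gene of the spindle checkpoint, had 4.62-fold and 22.6-fold, Nde1, a dynein regulator gene, 5.40-fold and 23.2-fold, and Ckap2l, a spindle gene, 3.82-fold and 23.5-fold. Anapc4, a scaffold gene of the anaphase-promoting complex, leaned to Menin at 23.4-fold and 10.6-fold. Centrosome and cilium genes had the highest median of the 50 lists, 18.5 points, with 17 of 51 (33.3%) leaning to UTX and 10 (19.6%) to Menin. Their share leaning to Menin was thus not below that of all genes with both. Cep192 (4.17-fold and 14.3-fold) and Cep57 (5.58-fold and 21.9-fold), genes of centrosome structure, and Bbs7 (4.24-fold and 17.0-fold), a cilium gene, leaned to UTX, and Cep295 (26.6-fold and 10.9-fold), a centriole gene, to Menin. DNA repair and checkpoint genes had a median of 10.4, with 23 of 80 (28.75%) leaning to UTX and 10 (12.5%) to Menin. Ung, the uracil glycosylase gene, had 5.53-fold and 26.3-fold, and Alkbh2, a neighbouring repair gene that removes alkyl groups from DNA, the same peaks. Xpc (21.8-fold and 11.1-fold), a damage sensor gene, and the mismatch repair gene Msh6 (8.83-fold and 6.32-fold) leaned to Menin.

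Replication and cell cycle control showed no such lean. DNA replication genes had a median of 4.11, with 11 of 58 leaning to UTX and 9 to Menin. The licensing gene Cdt1 had 2.998-fold and 16.4-fold and the replication gene Gins2 18.8-fold and 8.89-fold, while Pcna, the sliding clamp gene, was high in both at 15.4-fold and 24.5-fold. E2F factors, cyclins and their kinases had a median of 1.58, with 3 of 24 leaning to Menin and 1 to UTX. Ccne1, the cyclin E1 gene, leaned to Menin (17.7-fold and 9.85-fold) and Cdk12, a kinase gene of transcription elongation, to UTX (6.02-fold and 19.8-fold). Cell cycle inhibitors and antiproliferative genes had a median of −2.65 and the narrowest quartiles of the 50 lists, −5.86 and 7.28, with 3 of 28 leaning each way. Btg1 was high in both at 22.3-fold and 36.1-fold, Gadd45g, a stress-induced growth arrest gene, leaned to UTX (5.85-fold and 29.6-fold) and Ccng1, a p53 target gene, to Menin (8.37-fold and 6.85-fold).

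Chromatin genes were read in several classes, and no difference between classes was tested. Remodellers and bromodomain proteins had a median of 18.4 points, with 12 of 43 leaning to UTX and 3 to Menin. Besides Ino80b, Ino80, the ATPase gene of that complex (3.06-fold and 12.5-fold), Chd8, an ATPase gene (4.65-fold and 16.9-fold), and Pbrm1, the polybromo subunit gene of SWI/SNF (5.66-fold and 15.1-fold), leaned to UTX. Mbd2, a methyl-DNA reader gene, leaned to Menin at 33.3-fold and 13.1-fold. Histone and DNA modifying enzymes had a median of 3.78, with 16 of 75 leaning to UTX, among them Ezh2 and Hdac1, a histone deacetylase gene (4.73-fold and 21.9-fold), and 11 to Menin. Kdm1b, a histone demethylase gene, was higher for Menin than nearly all genes, at 37.0-fold and percentile 99.9, and had 22.98-fold UTX. Genes of the MLL and COMPASS complexes and their elongation partners had a median of −1.36, with 8 of 27 leaning to Menin and 4 to UTX. Kmt2a, which encodes MLL1, had 6.72-fold and 17.6-fold, Ash2l, a core subunit gene, 6.88-fold and 17.0-fold, and Setd1a, a related methyltransferase gene, 4.52-fold and 11.3-fold. Ell, an elongation factor gene, had 22.3-fold and 11.8-fold, Cxxc1, a CpG-binding subunit gene, 7.29-fold and 5.69-fold, and Cdk9, the kinase gene of P-TEFb, 11.3-fold and 9.29-fold. Replication-dependent histone genes had a median of 3.01 over 30 genes that shared 21 pairs of peaks, with −10.9 when fold was ranked in place of −log10 q and 10.8 with percentiles among all peaks.

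Transcription factors of the AP-1, ATF and CREB families had a median of 11.5, with 4 of 18 leaning to UTX and 2 to Menin. Crebl2 (4.92-fold and 15.7-fold), Fosb (6.50-fold and 12.9-fold) and Atf6b (6.45-fold and 15.9-fold), a stress factor gene of the endoplasmic reticulum, leaned to UTX. Fosl2 (14.2-fold and 8.49-fold) and Atf3 (13.0-fold and 13.1-fold) leaned to Menin, and Junb was high in both at 16.3-fold and 41.2-fold. Blood cell transcription factors had a median of 2.02, with 10 of 45 leaning to UTX and 7 to Menin. Klf6 (5.63-fold and 15.95-fold), Mxd4, an antagonist gene of MYC (5.67-fold and 19.7-fold), and Id2 (7.72-fold and 22.98-fold) leaned to UTX. Nfe2l2, the gene of the antioxidant factor NRF2, leaned to Menin by 82.8 points, at 21.99-fold and 6.46-fold, while its relative Nfe2l1 leaned to UTX by 48.1, at 4.65-fold and 16.1-fold. Zfpm1, the gene of the GATA cofactor FOG1, was at percentile 99.98 for Menin (42.3-fold) and 82.0 for UTX (19.7-fold). Zinc finger genes with Zfp or Zbtb symbols had a median of 2.79 over 146 genes, and 12.1 with percentiles among all peaks. RNA polymerases, Mediator and basal factors had a median of 3.14 but an uneven split, with 26 of 85 leaning to UTX and 10 to Menin. Med9 (3.19-fold and 15.9-fold), a Mediator gene, and Supt16 (3.85-fold and 17.0-fold), a gene of the histone chaperone FACT, were on the UTX side, and Tbp, the TATA-binding protein gene (9.06-fold and 4.67-fold), on the Menin side.

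Lists of translation and RNA processing mostly stayed near the middle. Cytosolic ribosomal proteins had a median of 2.50, with 10 of 66 leaning to UTX and 8 to Menin, and mitochondrial ribosomal proteins 8.68, with 9 and 5 of 46. Rpsa (5.43-fold and 19.2-fold) and Rpl14 (6.18-fold and 20.1-fold) leaned to UTX and Rps9 (9.50-fold and 4.36-fold) and Rpl3 (7.44-fold and 5.47-fold) to Menin. Fau, a ribosomal protein gene, and Mrpl49 shared their peaks and had a lean of 0.02, at 19.1-fold and 31.7-fold. Aminoacyl-tRNA synthetases, which charge tRNAs, had a median of 10.3, with 8 of 27 leaning to UTX and 6 to Menin, but 0.145 when fold was ranked. Iars (6.26-fold and 18.8-fold) and Gars (10.5-fold and 8.08-fold) stood on opposite sides. Splicing factors and hnRNPs had a median of 5.51, with 25 of 103 leaning to UTX and 12 to Menin, and Hnrnpr (5.95-fold and 30.1-fold) and Rbm14 (4.91-fold and 17.4-fold) had large leans to UTX. Translation initiation factors had a median of 6.66 with 7 of 37 leaning each way. DEAD and DEAH box helicases had −3.41, which turned to 2.48 with percentiles among all peaks, and cleavage, polyadenylation and Integrator genes had 2.21. Cnot1, the scaffold gene of the CCR4-NOT deadenylase, had 4.75-fold and 16.5-fold and a lean of 69.2. Respiratory chain subunits had a median of 2.63, with 11 of 47 leaning to UTX and 4 to Menin, and mitochondrial import and folding genes −8.71, with 4 of 24 leaning to Menin and 3 to UTX. Atp5b, the catalytic subunit gene of ATP synthase, had 7.01-fold and 29.5-fold, and Hspa9, the mitochondrial chaperone gene, 9.62-fold and 7.28-fold.

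Signalling lists were also near the middle by their medians, with single genes far out on either side. PI3K, mTOR and AMPK genes had a median of 8.98, with 10 of 45 leaning to Menin and 9 to UTX. Foxo1, a transcription factor gene of insulin signalling, had 4.26-fold and 13.7-fold, Akt2 4.66-fold and 16.3-fold, and Arrdc4, a regulator gene of glucose uptake, 4.03-fold and 20.3-fold with 6 CCAAT. Eif4ebp2, a translation repressor gene downstream of mTOR, had 22.7-fold and 8.15-fold, and Castor1, an arginine sensor gene, 11.03-fold and 4.04-fold. JAK-STAT and NF-κB genes had a median of 8.07, with 7 of 28 leaning to Menin and 5 to UTX. The adaptor gene Traf2 (8.81-fold and 27.8-fold) leaned to UTX, and the kinase gene Jak1 (9.68-fold and 6.598-fold) and Relb (18.9-fold and 9.24-fold) to Menin. MAP kinase genes had a median of 0.64, with 4 of 36 leaning to Menin and 3 to UTX, and Map2k4 had 25.8-fold and 10.6-fold. BCL2 family and caspase genes had a median of −2.51 over 16 genes, with Bcl2l11, the gene of the cell death activator BIM, at 13.6-fold and 12.5-fold and Bad at 4.80-fold and 14.2-fold. Circadian clock genes had a median of 1.11 but an uneven split. Of 13 genes, 6 (46.2%) leaned to UTX, against 18.2% of all genes with both, and 2 to Menin. Dbp (5.57-fold and 31.7-fold), Per2 (8.49-fold and 35.6-fold), Cry1 (5.26-fold and 13.4-fold) and Bhlhe40 (7.21-fold and 20.8-fold) were on the UTX side, and Nr1d2 (11.6-fold and 13.1-fold) was on the Menin side.

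Lists of blood and leukaemia genes differed in how many had both peaks, which 28.4% of all genes had. Blood cell transcription factors had both at 45 of 91 and MLL and COMPASS genes at 27 of 39. Antigen presentation and interferon-stimulated genes had both at 13 of 55, and UTX at 36.4%, against 36.5% of all genes. Their median was 15.3 points, with 3 leaning each way. H2-D1 (4.12-fold and 13.7-fold), a class I antigen gene, leaned to UTX, and Tap1 and Psmb9, neighbours of peptide supply that share their peaks (7.78-fold and 9.30-fold), leaned to Menin. Counting starts alone, the median was 6.10. Myeloid granule and surface genes had 9 of 60, with a median of −2.005 and 1 leaning each way. S100a9, a granule protein gene, had 5.85-fold and 6.24-fold and Il6ra, the interleukin-6 receptor gene, 7.13-fold and 18.8-fold. Genes of the MLL fusion programme had both peaks at 7 of 37 and UTX alone at 9. Secreted inflammatory factors had both at 4 of 50, and in each list these were too few for a median to be read. The MLL fusion genes had Menin at 21.6% and UTX at 43.2%, against 31.2% and 36.5% of all genes. Developmental homeobox, SOX, PAX and T-box genes had Menin at 12 of 166 and UTX at 22, and the 9 with both had a median of 8.72. Olfactory and vomeronasal receptors, which belong to sensory neurons, had Menin at 7 of 1465 and UTX at 2.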

How the data were processed

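The 2 peak lists compared were deposited by the authors, 1 library each (Menin in DMSO, 11195 peaks, and UTX in MI-503, 14231). The labels describe 30 libraries. The submitters' processing notes name MACS2 as a tool and mm10 as a build. Its version and threshold, the aligner and any read filter were not given in the sources used here. Per the deposited peak names each list had its own vehicle input. The deposited fold is the ratio of the summit's pileup to its background, the deposited −log10 p-value and −log10 q-value are those of the summit, and the deposited score was the whole part of 10 times −log10 q in all 25426 peaks. All are the authors' values and serve to rank within a list. Absolute depth is unknown.

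Each gene of the RefSeq table (GRCm38.p6) took its highest −log10 q in each list among summits within 1000 bp of its start or end. Percentiles, with ties averaged, were taken over genes with both peaks, with pandas 2.3.3 and scipy 1.17.1. The mitochondrial chromosome was renamed to match. Of 828 gene names in the lists 826 matched, and 36 of 53 lists were symbol patterns. Members and lists were chosen with earlier results of these data known, and the motifs, GC bins and 3 of the alternatives after values were seen. No test was run, since each condition has 1 library. Named were the 12 genes of largest lean each way, 6 at each end of both rankings, 6 with 1 protein alone, those at the window's edge and, per list, up to 4 each way and 3 high in both. Predicted genes (Gm or Rik symbols) were only counted, and a few genes that met the rule are not reported here. Genes named outside that rule (Coa4, Derl3, Hsp90b1) were chosen after their values were seen. Code was tested on simulated peaks. Of the other libraries, the DMSO list of UTX and the MI-503 list of Menin were used for presence only, and 26 were not analysed here.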

Additional observations from a re-analysis of the deposited data

How the results depend on the processing

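Results were recomputed with fold in place of −log10 q, windows of 500 bp and 3 kb, transcription starts alone, stricter or shorter lists, overlapping peaks, other sets of genes and percentiles among all peaks. A further 3 alternatives, chosen after values were seen, left out mitochondrial genes, raised the lean to 40 points and took any promoter of a gene. Spearman's rho was 0.511 and became 0.429 when fold was ranked and 0.477 above a −log10 q of 5, where the share of Menin genes with UTX was 89.7%. Where peaks had to overlap, 85.9% of Menin genes had UTX and 73.6% of UTX genes had Menin. With a UTX list as long as the Menin list these were 87.2% and 81.5%, and counting starts alone the former was 91.8%. Percentiles among all peaks gave 511 genes leaning to Menin, and CCAAT in 50.8% of promoters leaning to UTX. A lean of 40 points left 569 genes on the Menin side and 437 on the UTX side, with CCAAT in 28.6% and 70.6%. The other 80 of 94 values of this kind stayed within 1.5 times for counts, among them 1431 genes leaning to UTX with percentiles among all peaks, or within the 95% interval for shares and rho. Ranking by fold kept 1007 of the 1096 genes leaning to Menin and 996 of the 1130 leaning to UTX, and percentiles among all peaks kept 460 and 915.

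Of the 11 lists that leaned, proteasome, endoplasmic reticulum, remodeller and centrosome lists kept at least 10 points in all 12 settings. Mitosis genes ranged from 9.64 to 15.9, DNA repair genes from 9.01 to 15.0 and aminoacyl-tRNA synthetases from 0.145 to 11.9. The 10 points were counted from 0, while with percentiles among all peaks the median of all genes was itself 7.42. In that setting the endoplasmic reticulum list had 14.6 and mitosis genes had 15.9. Of 364 genes that met the naming rule and leaned by at least 25 points, 5 changed sign: Snrpd3 (7.19 points with 500 bp), Mrpl55 (5.52), Tcf3 (3.31) and Casp9 (14.8) with 3 kb, and Tapbp (−2.28) with starts alone. Among the 180 with a smaller lean, 38 changed sign in a setting. The cause was not tested. No paired analysis was possible because each group has 1 library and no test was run. Keeping 1 gene per pair of peaks gave no shares of presence. With 1 library per condition, depth and antibody efficiency cannot be told apart from treatment.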

Other observations

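Genes on the X chromosome lay further to the Menin side than those of any autosome. Of the 100 X-linked genes with both peaks, 26 leaned to Menin and 8 to UTX, and the median lean was −6.26 points, with median enrichments of 7.08-fold for Menin and 8.76-fold for UTX. Autosomal medians ran from −2.03 on chromosome 18 to 6.22 on chromosome 3. On chromosome 3, 59 of 283 genes leaned to UTX and 47 to Menin. Chromosome 15 had the smallest share of the autosomes in either direction, with 12.4% of its 251 genes leaning to Menin and 13.9% to UTX.

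The mitochondrial genome held 3 genes with both peaks, COX1, ND1 and ND2, which encode subunits of cytochrome oxidase and of respiratory complex I. Their enrichment was low, at 1.95-fold to 2.02-fold for Menin and 1.81-fold to 1.83-fold for UTX, and their leans to Menin were −38.9, −46.3 and −38.9 points. COX1 and ND2 had the same fold in each list and the same lean, so the 3 leans need not be separate observations.

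Genes that shared their pair of peaks with a neighbour were 364 of 1130 (32.2%, 29.5 to 35.0%) of those leaning to UTX, 1223 of 3985 (30.7%) between and 277 of 1096 (25.3%, 22.7 to 28.0%) of those leaning to Menin. Median gene length was 19004 bp for genes leaning to UTX and 22735 bp for genes leaning to Menin.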
